A study of Homo sapiens with 9 samples.

Results

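The genes described here encode the proteins that license, fire and copy replication origins, together with the enzymes and cyclins that carry a cell from G1 into S phase. There were 43 of them, chosen by name with earlier results of these data known, among 18417 genes measured. All 43 had a probe set assigned to that gene alone; only UHRF1 had more than 1, and its brighter probe set was used. RNA came from Hep3B cells, an established human hepatocellular carcinoma line. The 9 Affymetrix arrays split evenly into an untreated group, a group given nonsense siRNA with the reagent Oligofectamine, and a group given YAP-specific siRNA with the same reagent; siRNA was added after 24 h of growth and RNA was taken 24 h later. Untreated cells thus lacked both the transfection reagent and an siRNA, while the nonsense siRNA cells carried both. For untreated cells 24 h of growth is given and no later time, so their time in culture may differ as well. The sample titles start with HUH, but their cell line labels and descriptions give Hep3B, and that name is used here. The labels do not say whether the 3 samples of a group were separate cultures, so every test measures the spread between these samples, which may be technical.

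Replication is prepared in G1, when the origin recognition complex, CDC6 and CDT1 load the MCM helicase ring onto DNA. The kinase of CDC7 and DBF4 and the cyclin E kinase then activate the ring with CDC45 and the GINS complex, DNA polymerase alpha and primase lay down primers, and polymerases delta and epsilon copy the strands on the PCNA clamp that replication factor C loads. Most of these genes are classical targets of the E2F transcription factors and peak in transcript level around the G1/S boundary. YAP, encoded by YAP1, is the coactivator that the Hippo pathway restrains and that works through TEAD factors, and its activity has been linked to proliferation of liver cells.

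Signals are log2 values and every difference below is on that scale. YAP1 was lower after YAP-specific siRNA, at 7.54, 7.52 and 7.48 on the 3 arrays against 8.66, 8.75 and 8.68 after nonsense siRNA and 8.78, 8.62 and 8.69 in untreated cells. It fell by 1.18 against nonsense siRNA (SE 0.0548, adjusted p = 4.34e-09 by limma), which left 44.0% of that level, and by 1.19 against untreated cells. As a check on detection, the hepatocyte markers ALB and AFP ranked at the 99.7 and 99.97 percentiles of mean signal over all genes, and all 9 hepatocyte markers at the 68.0 percentile or above. The 7 leukocyte markers ranged from the 3.13 percentile (PTPRC) to the 88.0 (LYZ, lysozyme) and the 10 stromal and endothelial ones from the 4.53 (DCN) to the 78.7 (COL1A1), and 3 and 2 of them were brighter than the dimmest member. The members' probe sets ranked between the 48.7 and 98.6 percentiles, and 42 of 43 lay above the median. Arrays within a group were not equally alike. Deviations from the group mean, taken across all genes, correlated at r = 0.47 between nonsense siRNA replicate 2 and YAP siRNA replicate 3 and at r = 0.34 between untreated replicate 3 and YAP siRNA replicate 3, and each of these 3 arrays had the lowest array weight of its group. Results are therefore also given without nonsense siRNA replicate 2, or without all 3 of these arrays, the latter set being chosen after the data were seen.

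**Figure D1:**
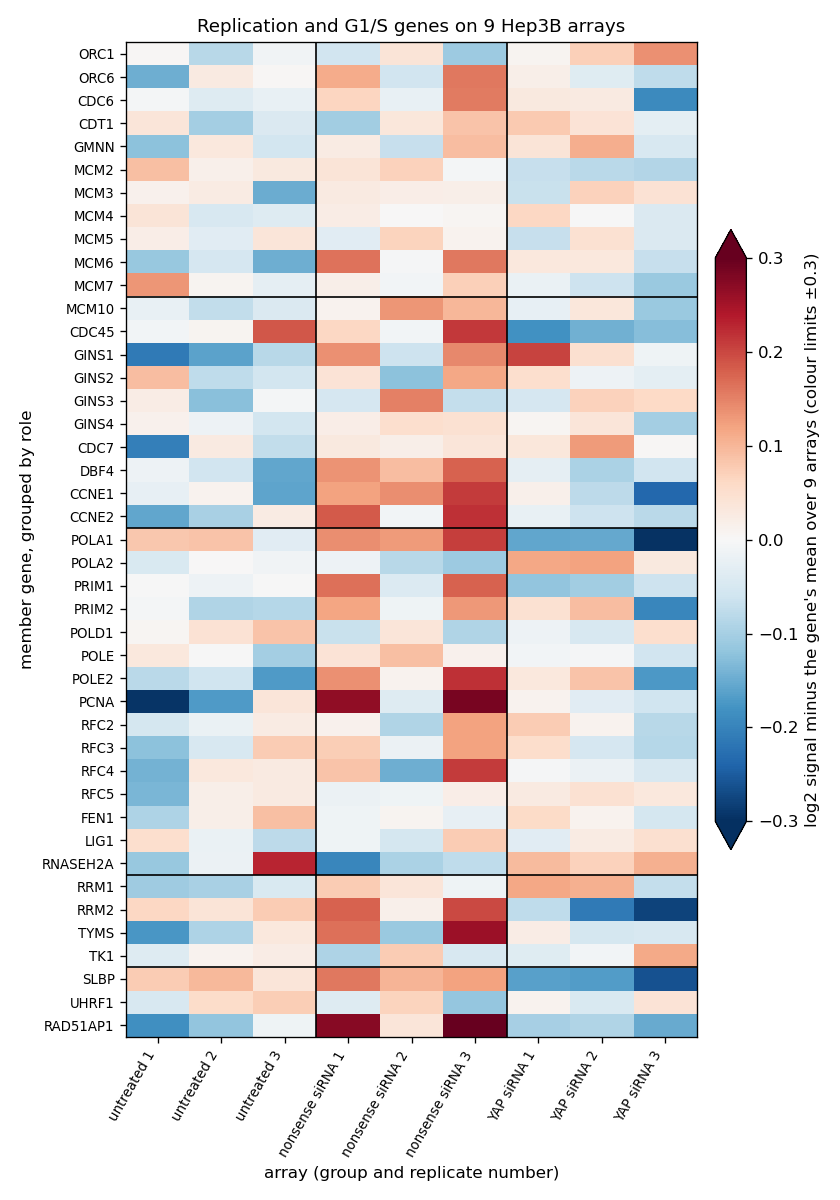
Log2 signal of the 43 members on each of the 9 arrays, drawn as the deviation from the gene's own mean over all arrays (red above, blue below, colour limits ±0.3), with genes grouped from the top as origin licensing, origin firing, polymerases and clamp, nucleotide synthesis, and histone mRNA, chromatin and repair. Nonsense siRNA replicates 1 and 3 were above the gene's mean for 31 and 33 of 43 members, and YAP siRNA replicate 3 for 11.

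The comparison of both siRNAs asks what differs between YAP-specific and nonsense siRNA among cells that were all transfected. The groups differ in the siRNA given, so lower YAP1 and any other effect of that siRNA cannot be told apart. Of the 43 members 5 fell and 0 rose (limma, adjusted p under 0.05), 11.6% lower where 2.61% of all genes fell and 1.92% rose. They were POLA1, SLBP, RRM2, RAD51AP1 and CCNE1, and the falls left between 77.9% and 83.8% of the nonsense siRNA level. The share of genes called was higher among bright genes, and 42 of the 43 members were above the median signal. In a fit of genes above the 50th percentile of mean signal 6 members fell and 0 rose, where 5.54% of those genes fell and 4.14% rose. At an unadjusted p under 0.05 there were 11 lower and 2 higher, where 7.69% and 8.08% of all genes were. The median member difference was -0.07 against 0.01 over all genes, and 28 of 43 differences were negative, where 44.3% of all genes were. Among genes above the 50th percentile of mean signal the median was -0.06 for members and 0.00 for those genes. In 12 members all 3 YAP siRNA arrays lay below all 3 nonsense siRNA arrays (27.9%, against 8.71% of all genes), and in 3 they lay above (6.98%, against 11.5%). The count of 5 turned to 2 with nonsense siRNA replicate 1 left out (1.47% of all genes fell), to 11 with its replicate 2 left out (4.43%), and to 3 with its replicate 3 (1.60%) or YAP siRNA replicate 3 (1.64%) left out. In RNA from a whole culture, fewer cells in S phase and less transcript per cell cannot be told apart.

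The fall of POLA1, the catalytic subunit of DNA polymerase alpha, was the largest. Its signal was 8.39, 8.38 and 8.46 on the nonsense siRNA arrays, 8.33, 8.33 and 8.21 in untreated cells and 8.09, 8.09 and 7.95 after YAP-specific siRNA. All YAP siRNA arrays lay below all 6 control arrays, and YAP siRNA replicate 3 was the lowest. POLA1 fell by 0.36 against nonsense siRNA (SE 0.0580, adjusted p = 0.00156 by limma) and passed in every fit that left out 1 array (highest adjusted p = 0.0109). The other subunits of the complex did not pass. PRIM1, the catalytic primase subunit, read 8.39, 8.40 and 8.44 after YAP-specific siRNA and 8.67, 8.47 and 8.69 after nonsense siRNA, a difference of -0.20 (adjusted p = 0.0865); its nonsense siRNA replicate 2 lay close to the 8.51, 8.49 and 8.51 of untreated cells. PRIM2, the large primase subunit, differed by -0.10 (adjusted p = 0.603). POLA2, the regulatory B subunit, lay in the other direction, at 8.43, 8.43 and 8.34 against 8.30, 8.23 and 8.20, a difference of 0.16 (adjusted p = 0.118). The 95% intervals of POLA1 (-0.48 to -0.24) and POLA2 (0.05 to 0.27) were apart; the difference between the 2 subunits was not itself tested.

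SLBP, which binds the stem-loop of replication-dependent histone mRNAs and is needed for their processing and translation in S phase, fell nearly as far. It read 8.56, 8.55 and 8.46 after YAP-specific siRNA, 8.88, 8.82 and 8.84 after nonsense siRNA and 8.80, 8.82 and 8.76 in untreated cells, so the YAP siRNA arrays were again below all others. The fall against nonsense siRNA was 0.32 (SE 0.0514, adjusted p = 0.00135 by limma), and it passed in every fit that left out 1 array (highest adjusted p = 0.0128). RRM2, the small subunit of ribonucleotide reductase, which makes deoxyribonucleotides, read 8.01, 7.87 and 7.81 against 8.26, 8.10 and 8.28 after nonsense siRNA and 8.15, 8.12 and 8.16 in untreated cells. RRM2 fell by 0.32 (adjusted p = 0.00753), and did not pass once nonsense siRNA replicate 1 was left out (adjusted p = 0.0509). Its large partner subunit RRM1 differed by 0.02 (95% interval -0.11 to 0.14). The other thymidylate and salvage enzymes did not pass: TYMS, thymidylate synthase, differed by -0.13 and TK1, thymidine kinase, by 0.04.

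RAD51AP1, a DNA repair factor, and CCNE1, cyclin E1, fell against nonsense siRNA and did not pass against untreated cells, from which they differed by -0.01 and -0.04 (adjusted p = 0.970 and 0.805). RAD51AP1 read 8.08, 8.09 and 8.03 after YAP-specific siRNA and 8.45, 8.22 and 8.53 after nonsense siRNA, with 8.0, 8.06 and 8.17 in untreated cells. The YAP siRNA arrays overlapped the untreated ones, and it was the nonsense siRNA arrays that stood above both other groups. RAD51AP1 fell by 0.33 against nonsense siRNA (SE 0.0725, adjusted p = 0.0140 by limma), a call lost without nonsense siRNA replicate 1 (0.0817) or 3 (0.0769) or YAP siRNA replicate 3 (0.0533). CCNE1 had the same order of groups: 8.42, 8.33 and 8.17 after YAP-specific siRNA, 8.53, 8.55 and 8.62 after nonsense siRNA, and 8.38, 8.42 and 8.25 in untreated cells. CCNE1 fell by 0.26 (adjusted p = 0.0413) and did not pass without untreated replicate 1 (0.0524) or 2 (0.0544), nonsense siRNA replicate 1 (0.101) or 3 (0.157), or YAP siRNA replicate 2 (0.100) or 3 (0.172), nor with each array centred on its median (0.0610) or with only the 6 arrays compared (0.0540). Its paralog CCNE2, cyclin E2, differed by -0.19 (adjusted p = 0.149).

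Of the firing genes CDC45 and DBF4 lay just beyond the threshold. CDC45, the helicase cofactor, read 8.15, 8.18 and 8.20 after YAP-specific siRNA, below all 6 control arrays, which ran from 8.32 to 8.54; its difference from nonsense siRNA was -0.24 (adjusted p = 0.0526). DBF4, the activating subunit of the CDC7 kinase, read 7.24, 7.17 and 7.21 against 7.40, 7.36 and 7.44 after nonsense siRNA and 7.25, 7.21 and 7.11 in untreated cells, a difference of -0.19 (adjusted p = 0.0548). CDC7 itself differed by 0.03. Without nonsense siRNA replicate 2 the members that fell numbered 11 and those that rose 0, where 4.43% of all genes fell and 2.25% rose: CDC45 (adjusted p = 0.0182), DBF4 (0.0414), PRIM1 (0.00696), CCNE2 (0.0207), PCNA (0.0255) and TYMS (0.0434) joined the other 5. With all 3 correlated arrays left out, 10 fell and 1 rose, where 4.19% of all genes fell and 2.8% rose. Those 10 were the same 11 less CCNE1 (adjusted p = 0.0650), and the member that rose was RNASEH2A (0.0447).

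**Figure D2:**
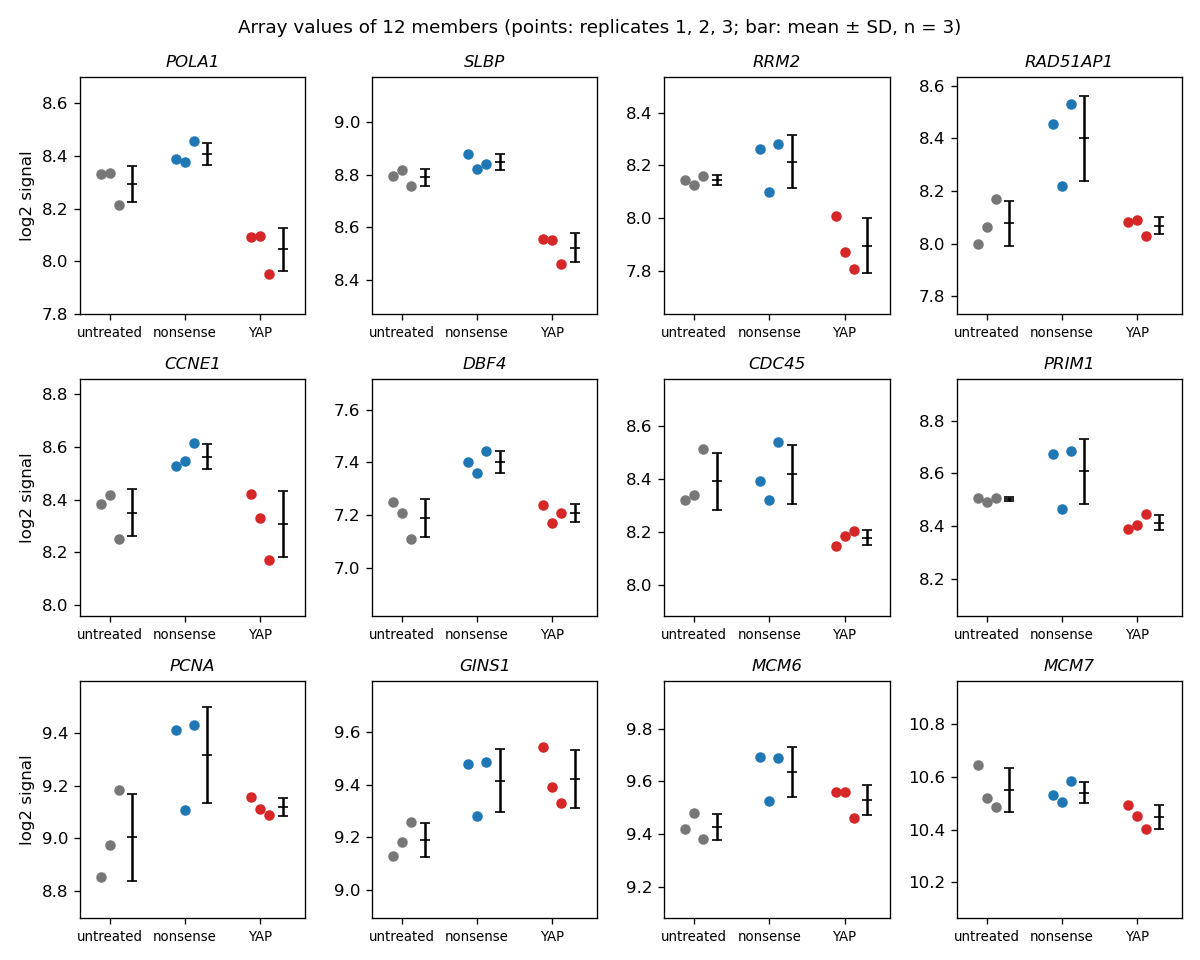
Log2 signal of 12 members in untreated, nonsense siRNA and YAP siRNA cells, with 1 point per array (replicates 1, 2 and 3 from left to right) and the group mean ± SD (n = 3) beside them; every panel spans 0.9 log2 units. POLA1, SLBP, RRM2, CDC45 and PRIM1 had all 3 YAP siRNA arrays below all 6 control arrays. Of the 12, GINS1 had its highest group mean after YAP-specific siRNA, MCM7 in untreated cells and the others after nonsense siRNA.

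The helicase and its loaders did not pass in this comparison. The 6 core MCM genes differed by -0.11 to -0.00 from nonsense siRNA, and their 95% intervals lay between -0.23 and 0.12, so falls as large as that of POLA1 were outside the interval of every MCM2 to MCM7 gene. MCM2, with 9.0, 8.99 and 8.98 after YAP-specific siRNA, 9.10, 9.14 and 9.06 after nonsense siRNA and 9.16, 9.08 and 9.10 in untreated cells, had all YAP siRNA arrays below all controls at a difference of -0.11 (adjusted p = 0.270). MCM3 and MCM4 differed by -0.01 and -0.00. ORC1 and ORC6, of the origin recognition complex, differed by 0.11 and -0.10, the loaders CDC6 and CDT1 by -0.11 and 0.03, and GMNN, which inhibits CDT1, by 0.02. The 4 GINS genes differed by -0.06 to 0.02 and the 4 replication factor C genes RFC2 to RFC5 by -0.09 to 0.04. MCM10, an initiation factor, differed by -0.11.

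At the fork, PCNA, the sliding clamp, had wide spread. It read 9.41, 9.11 and 9.43 after nonsense siRNA, 9.16, 9.11 and 9.09 after YAP-specific siRNA and 8.85, 8.98 and 9.18 in untreated cells, and the difference from nonsense siRNA was -0.20 (adjusted p = 0.278). The polymerase genes POLD1, POLE and POLE2 differed by 0.04, -0.07 and -0.14, the flap endonuclease FEN1 by 0.01 and the ligase LIG1 by 0.01. RNASEH2A, the catalytic subunit of ribonuclease H2, which removes ribonucleotides from DNA, had the highest positive difference, 0.21 (adjusted p = 0.134), at 9.13, 9.10 and 9.14 against 8.84, 8.94 and 8.96 after nonsense siRNA. Its untreated arrays read 8.92, 9.02 and 9.26 and overlapped the YAP siRNA ones. UHRF1, which guides maintenance DNA methylation, differed by 0.03 on its brighter and 0.06 on its dimmer probe set.

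Against untreated cells, which had no transfection, the YAP siRNA arrays differ by the transfection, and perhaps by time in culture, as well as by YAP1. They are the arrays already used above. Here 3 members fell and 0 rose, 6.98% where 1.46% of all genes fell and 1.63% rose. Among genes above the 50th percentile of mean signal 3 members also fell and 0 rose, where 3.07% of those genes fell and 3.2% rose. SLBP fell by 0.27 (SE 0.0514, adjusted p = 0.00823 by limma), POLA1 by 0.25 (adjusted p = 0.0294) and RRM2 by 0.25 (adjusted p = 0.0461). These 3 members were the ones that fell against both control groups, where 1.11% of all genes did so. In 6 members the YAP siRNA arrays lay below all untreated arrays (14%, against 10.3% of all genes), and in 3 above (6.98%, against 10.2%). In 6 members all YAP siRNA arrays lay below all 6 control arrays, where 3.61% of all genes did: MCM2, CDC45, POLA1, PRIM1, RRM2 and SLBP. CDC45 differed from untreated cells by -0.21 (adjusted p = 0.108). The median member difference was 0.02 (-0.01 over all genes). Among genes above the 50th percentile of mean signal it was 0.02 for members and 0.01 for those genes. Of the 43 differences 28 were positive, where 43.6% of all genes were, which is the reverse of the count against nonsense siRNA. With each array centred on its median 1 member, SLBP, still passed, where 1.15% of all genes fell. POLA1 did not pass without untreated replicate 1 (adjusted p = 0.123) or 2 (0.122) or YAP siRNA replicate 1 (0.0698), 2 (0.0611) or 3 (0.0750). RRM2 did not pass without untreated replicate 1 (0.135), 2 (0.112) or 3 (0.115), nonsense siRNA replicate 1 (0.0655) or YAP siRNA replicate 2 (0.187) or 3 (0.103), nor with a trended, robust variance model (0.0511), and SLBP passed in every fit without 1 array (highest adjusted p = 0.0461). The count of 3 was thus 1 without untreated replicate 1 (0.863% of all genes fell) or 2 (0.912%) or YAP siRNA replicate 2 (0.896%) or 3 (1.67%). Without nonsense siRNA replicate 2, 3 members fell and GINS1 rose (adjusted p = 0.0428), where 1.78% of all genes fell and 2.23% rose. With all 3 of the correlated arrays left out, POLA1 and SLBP fell, where 3.15% of all genes did, and 3 members rose, where 5.32% did: GINS1 by 0.31 (adjusted p = 0.00760), PCNA by 0.22 (0.0350) and RRM1 by 0.21 (0.0323).

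Nonsense siRNA against untreated cells compared the same genes with and without transfection of a control siRNA. Time in culture may also differ between these groups, and that cannot be told apart from transfection. No member passed by limma, 0 lower and 0 higher, where 0.277% of all genes fell and 0.337% rose; at an unadjusted p under 0.05 there were 10 higher and 1 lower, where 9.87% and 9.66% of all genes were. Differences were positive for 34 of 43 members, where 40.7% of all genes were, with a median of 0.07 against -0.02 over all genes. Among genes above the 50th percentile of mean signal the median was 0.06 for members and 0.01 for those genes. In 11 members all 3 nonsense siRNA arrays lay above all 3 untreated arrays (25.6%, against 8.9% of all genes), and in 0 below (13.8% of all genes). The highest difference was that of RAD51AP1, 0.32 (SE 0.0725, adjusted p = 0.0568 by limma), followed by PCNA at 0.31 (adjusted p = 0.102). POLE2, GINS1, CCNE1, DBF4, MCM6 and CCNE2 differed by 0.21 to 0.23 (lowest adjusted p = 0.0846, for DBF4). MCM6 read 9.69, 9.53 and 9.69 after nonsense siRNA against 9.42, 9.48 and 9.38 in untreated cells, while the other 5 core MCM genes differed by -0.01 to 0.06.

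The count depended on nonsense siRNA replicate 2. Without nonsense siRNA replicate 2, 8 members rose and 0 fell against untreated cells, where 5.6% of all genes rose and 2.38% fell: PCNA by 0.42 (adjusted p = 0.00658), RAD51AP1 by 0.41 (0.00226), TYMS by 0.29 (0.0177), GINS1 by 0.29 (0.0183), CCNE2 by 0.28 (0.0160), POLE2 by 0.28 (0.0302), MCM6 by 0.26 (0.0152) and DBF4 by 0.23 (0.0303). Without YAP siRNA replicate 3, 1 member, RAD51AP1, rose (0.0482), where 0.771% of all genes did. With all 3 correlated arrays left out 9 rose, those 8 and PRIM1 (0.0444), and 0 fell, where 8.44% of all genes rose and 4.15% fell. A moderated F-test over the 3 groups called 5 members, 11.6% where 5.3% of all genes were called: SLBP (adjusted p = 0.00234), POLA1 (0.00382), RRM2 (0.0140), RAD51AP1 (0.0146) and DBF4 (0.0450), while CCNE1 did not pass it (0.0608). Among genes above the 50th percentile of mean signal, where nearly all members lie, it also called 5 members, but 10.8% of those genes. The F-test called 13 members with nonsense siRNA replicate 2 left out (11.1% of all genes), 2 with its replicate 1 left out (2.75%), and 3 with its replicate 3 (3.52%) or YAP siRNA replicate 2 (2.92%) or 3 (5.56%) left out, so the share of all genes called moved as well.

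**Figure D3:**
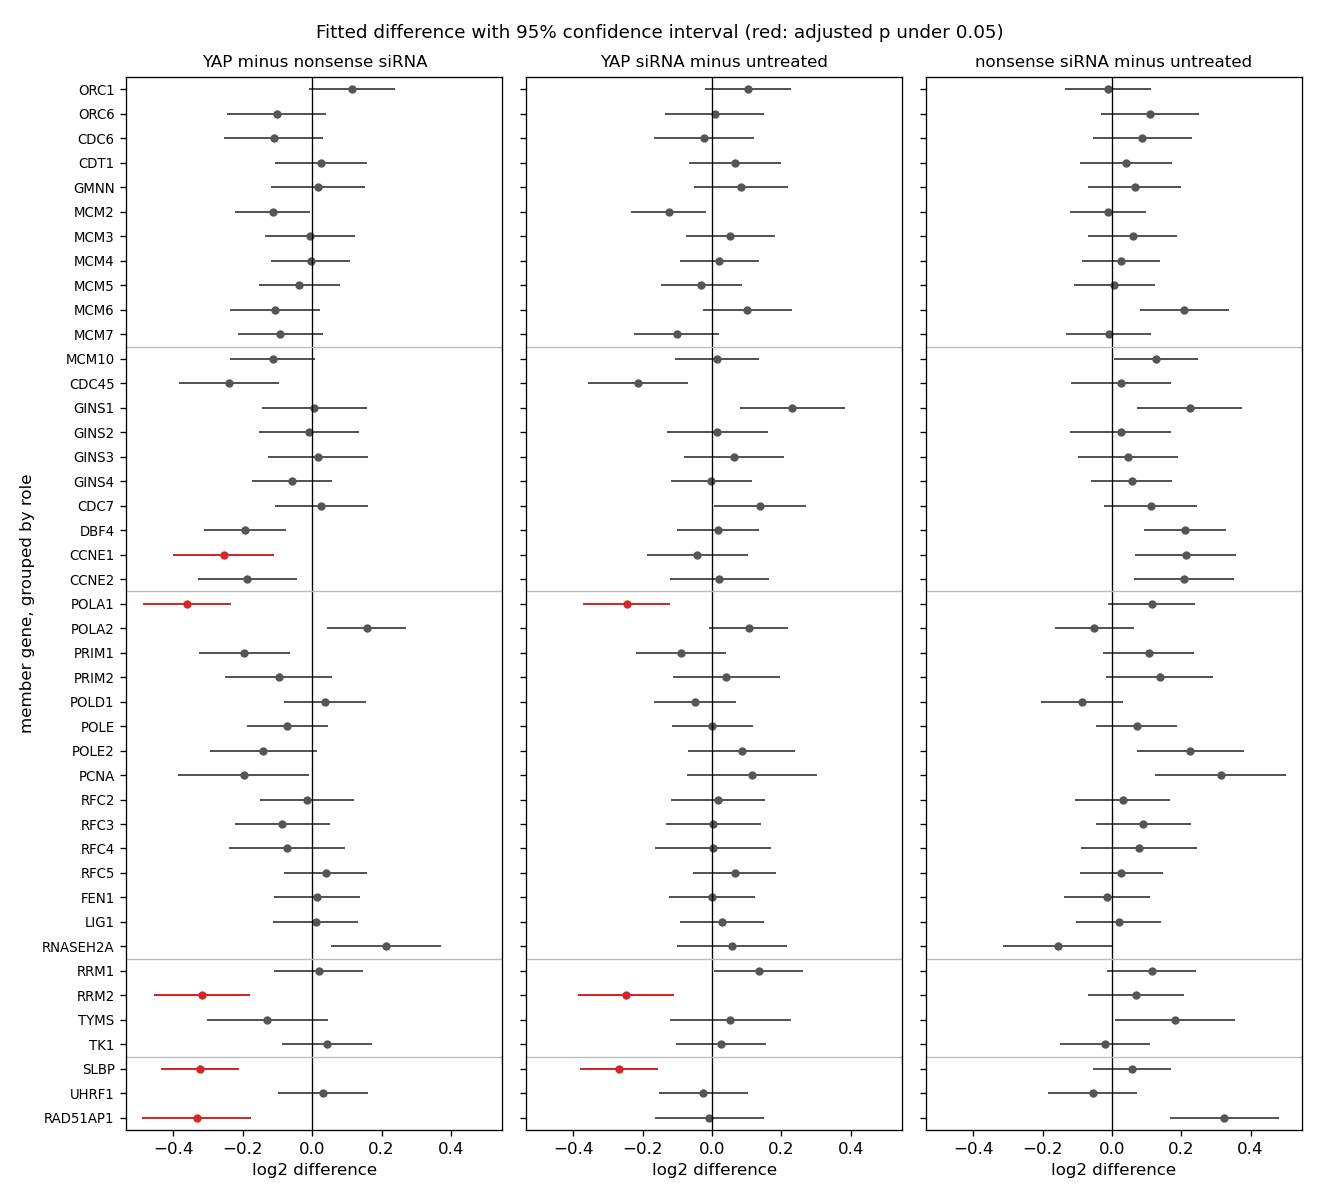
Fitted log2 difference (point) and 95% confidence interval (line) of each of the 43 members in the 3 comparisons, in red where the adjusted p was under 0.05 by limma. The red members were 5 for YAP siRNA minus nonsense siRNA, 3 for YAP siRNA minus untreated and 0 for nonsense siRNA minus untreated, all of them to the left of 0.

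The order of the 3 group means differed among the members. SLBP, POLA1 and RRM2 were lowest after YAP-specific siRNA and highest after nonsense siRNA, with smaller differences between the control groups (0.06, 0.11 and 0.07) than from YAP-specific siRNA. RAD51AP1, CCNE1, CCNE2, DBF4 and PCNA also had their highest mean after nonsense siRNA, and their YAP siRNA level lay within -0.04 to 0.12 of untreated cells. Over all 43, 16 were highest after nonsense siRNA and lowest in untreated cells (37.2%, against 15.0% of all genes), and 10 were highest after nonsense siRNA and lowest after YAP-specific siRNA (23.3%, against 12.4%). In all, 26 of 43 members (60.5%) were highest after nonsense siRNA, where 27.4% of all genes were, 12 after YAP-specific siRNA and 5 in untreated cells. The comparisons share arrays, so these orders are a description. The orders, and the counts of arrays without overlap above, were set beside all genes only and not beside genes as bright as the members.

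The median deviation of the 43 members from their own means was -0.02, -0.02 and -0.01 on the untreated arrays, 0.04, 0.01 and 0.10 on the nonsense siRNA arrays and 0.01, -0.00 and -0.06 on the YAP siRNA arrays. Untreated cells were close together, nonsense siRNA replicates 1 and 3 were high, and YAP siRNA replicate 3 was low. Mitotic genes, which act later in the cell cycle, had their highest median deviations on the same nonsense siRNA arrays (0.11, -0.02 and 0.10) and their lowest on YAP siRNA replicate 3 (-0.11). Hepatocyte markers, of which 9 of 10 were measured, followed a like order among the nonsense siRNA arrays, with a mean signal of 10.71, 10.55 and 10.70 there, 10.60, 10.57 and 10.58 in untreated cells and 10.68, 10.64 and 10.59 after YAP-specific siRNA; 0 of the 9 passed in any comparison. Of other cell types, 0 of 7 leukocyte markers passed (mean signal 7.16 to 7.29). Of 10 stromal and endothelial ones 1, COL1A2, a collagen chain, rose by 0.43 against nonsense siRNA (mean signal of the list 6.91 to 7.02), where 1.92% of all genes rose. Not every list followed that order: G1/S regulators had median deviations of 0.02, 0.03 and 0.04 on nonsense siRNA arrays 1 to 3, and leukocyte and stromal markers were highest of their group on YAP siRNA replicate 3 (0.08 and 0.04). The median deviation of 192 small nucleolar and Cajal body RNAs was lowest on untreated replicate 3 and YAP siRNA replicate 3, at -0.06 each, and between -0.01 and 0.04 on the other arrays. With that level as a covariate the median member difference between YAP-specific and nonsense siRNA was -0.03, 4 members fell (1.56% of all genes), and neither CCNE1 (adjusted p = 0.275) nor RRM2 (0.0584) passed, while CDC45 did (0.0287). What these array-wide shifts contributed to the members' differences was not tested beyond that fit.

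**Figure D4:**
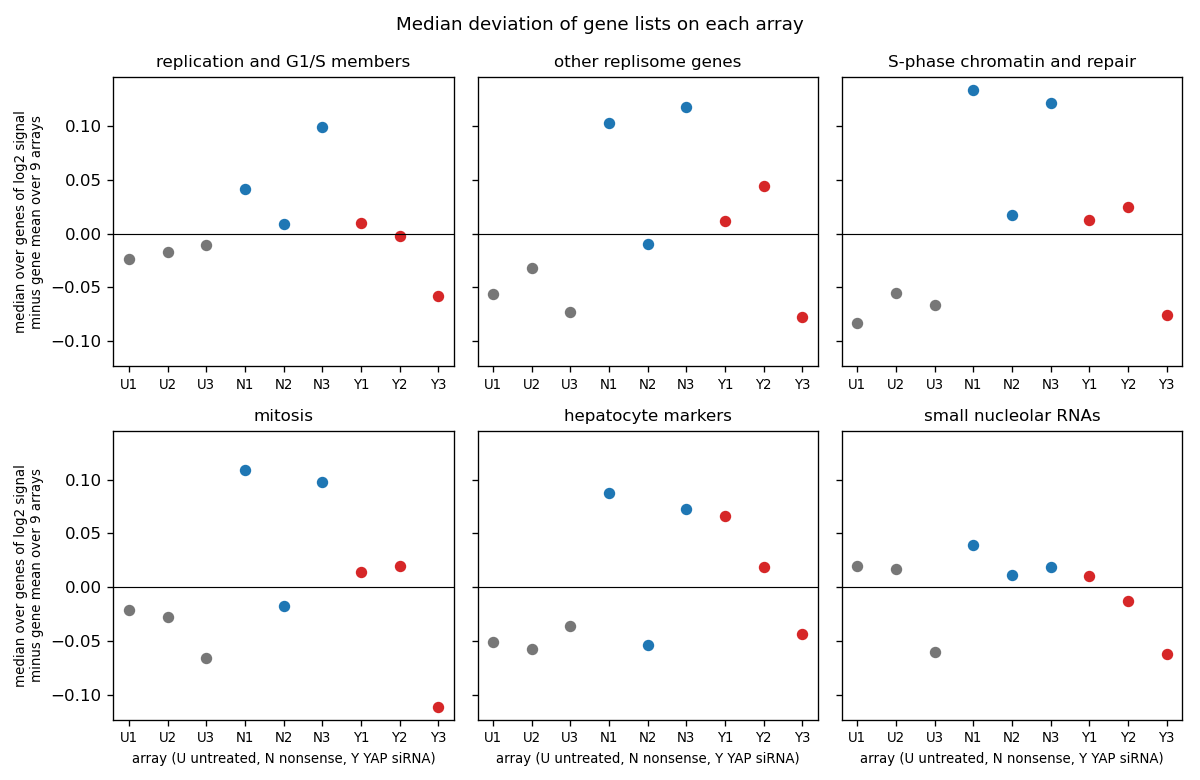
Median over the genes of a list of the log2 signal minus the gene's mean over 9 arrays, for the 43 members, other replisome genes, S-phase chromatin and repair, mitosis, hepatocyte markers and small nucleolar RNAs, on untreated (U), nonsense siRNA (N) and YAP siRNA (Y) arrays 1 to 3. In these 6 sets nonsense siRNA arrays 1 and 3 stood above array 2, and YAP siRNA array 3 was the lowest of its group.

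Promoter sequences show what the members share at their start sites, and those of the 5 members that fell are printed because they are the members that passed the test. RefSeq promoter windows of 300 bases (GRCh38.p14, 250 before to 50 after the start) were given for 39 of the 43 members, 52 windows in all. An E2F-like motif, TTTNNCGC on either strand with overlapping matches counted, occurred in 46.2% of the member windows and in 6.89% of all 35116 windows. CCAAT, the NFY-like motif, occurred in 53.8% and 34.6%, GGAATG, the TEAD-like motif, in 15.4% and 14.0%, and TTTGAA, the CHR-like motif of late cell cycle genes, in 3.85% and 15.2%. The member windows had a median GC content of 66.7%, against 58.7% for all windows, which also bears on how often each motif occurs. In the sequences, capitals mark TTTNNCGC and CCAAT or their reverse complements, and each runs 5′ to 3′ on the gene's strand.
POLA1: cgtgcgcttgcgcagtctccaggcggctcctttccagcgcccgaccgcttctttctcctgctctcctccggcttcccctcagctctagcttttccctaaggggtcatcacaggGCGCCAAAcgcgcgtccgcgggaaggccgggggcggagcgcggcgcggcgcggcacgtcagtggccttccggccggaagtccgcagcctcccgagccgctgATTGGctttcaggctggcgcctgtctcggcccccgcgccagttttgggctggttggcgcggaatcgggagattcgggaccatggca
SLBP: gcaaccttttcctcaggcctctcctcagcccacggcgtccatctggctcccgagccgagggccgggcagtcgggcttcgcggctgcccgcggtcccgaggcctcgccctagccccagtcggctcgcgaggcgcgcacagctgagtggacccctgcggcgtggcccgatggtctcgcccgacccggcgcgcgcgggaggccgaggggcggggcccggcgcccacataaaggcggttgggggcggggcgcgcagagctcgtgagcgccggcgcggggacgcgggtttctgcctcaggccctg
RRM2: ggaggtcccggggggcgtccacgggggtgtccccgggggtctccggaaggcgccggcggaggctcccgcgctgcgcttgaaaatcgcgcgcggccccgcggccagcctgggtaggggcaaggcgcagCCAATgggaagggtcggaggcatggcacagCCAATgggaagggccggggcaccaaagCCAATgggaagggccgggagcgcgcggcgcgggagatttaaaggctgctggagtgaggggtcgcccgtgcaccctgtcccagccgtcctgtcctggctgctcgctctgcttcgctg
RAD51AP1: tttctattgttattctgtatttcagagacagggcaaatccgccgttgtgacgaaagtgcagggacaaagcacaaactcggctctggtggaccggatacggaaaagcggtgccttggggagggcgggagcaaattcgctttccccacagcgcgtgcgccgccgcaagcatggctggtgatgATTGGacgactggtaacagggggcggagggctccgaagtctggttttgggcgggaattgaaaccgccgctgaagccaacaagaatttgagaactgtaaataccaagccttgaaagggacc
CCNE1: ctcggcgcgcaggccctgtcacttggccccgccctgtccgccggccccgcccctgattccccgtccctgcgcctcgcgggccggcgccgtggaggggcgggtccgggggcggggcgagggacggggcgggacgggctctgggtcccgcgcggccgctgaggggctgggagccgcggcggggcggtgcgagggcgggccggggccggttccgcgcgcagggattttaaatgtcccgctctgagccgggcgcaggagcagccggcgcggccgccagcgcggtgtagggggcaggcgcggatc

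These windows lie at chrX:24693668-24693967 (plus strand), chr4:1712270-1712569 (minus strand), chr2:10122489-10122788 (plus, the downstream one of 2 given), chr12:4538640-4538939 (plus) and chr19:29811741-29812040 (plus), in that order. Of the 5, POLA1 held the E2F-like motif (GCGCCAAA, at offset -137 from the start) and a CCAAT match. RRM2 had 3 CCAAT matches in the window shown, RAD51AP1 had 1, and SLBP and CCNE1 held neither motif in these letters. Among the other 34 members with a window, 22 held the E2F-like motif and 8 the TEAD-like motif. The TEAD-like motif was in 0 of the 5 that fell, and no difference between these sets was tested. Among the member windows MCM6 had the most E2F-like matches, 4 in 2 overlapping pairs. MCM6 is shown as an example of such matches, beside CDC6 with 1 match and MCM2 with an overlapping pair. These 3 were chosen after their matches were seen, so they allow no contrast with the 5 promoters above. E2F-like matches alone are in capitals.
MCM6: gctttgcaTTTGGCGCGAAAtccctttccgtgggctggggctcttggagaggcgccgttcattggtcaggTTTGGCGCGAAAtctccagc
CDC6: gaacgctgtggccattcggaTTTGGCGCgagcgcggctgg
MCM2: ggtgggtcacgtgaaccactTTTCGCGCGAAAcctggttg

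The stretches are chr2:135876514-135876603 (minus strand, offsets -160 to -71), chr17:40287866-40287905 (plus) and chr3:127598393-127598432 (plus) in GRCh38.p14. A match is a run of letters and was not tested for binding.

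Other genes of the same pathway, listed apart from the 43, were read in the same fit. Their lists were chosen with earlier results of these data known, so the share called in each list is a description. Of 32 further replisome genes 3 fell (9.38%) and 1 rose (3.12%) against nonsense siRNA, with a median difference of -0.05. Of all genes 2.61% fell and 1.92% rose, and of genes above the 50th percentile of mean signal 5.54% and 4.14%. RPA2, a subunit of the single-strand binding protein RPA, fell by 0.35 (adjusted p = 0.00105) and by 0.26 against untreated cells (adjusted p = 0.0139), whereas its large subunit RPA1 differed by 0.07. DSCC1, of an alternative clamp loader, fell by 0.32 against nonsense siRNA and differed by -0.05 from untreated cells, and TICRR, an origin firing factor, fell by 0.27 and differed by -0.01. RNASEH2C, another ribonuclease H2 subunit, rose by 0.21 against nonsense siRNA, and nonsense siRNA cells were themselves lower than untreated ones (difference -0.25, adjusted p = 0.0490). MCM8 differed by -0.10 and TOP2A, topoisomerase II alpha, by -0.09. RPA2 passed against nonsense siRNA in every fit without 1 array (highest adjusted p = 0.00974), but not against untreated cells without untreated replicate 1 (0.0679) or 2 (0.0528) or YAP siRNA replicate 1 (0.0978). DSCC1 was lost without nonsense siRNA replicate 1 (0.0726) or 3 (0.0550), TICRR without nonsense siRNA replicate 1 (0.0859) or YAP siRNA replicate 2 (0.0569) or 3 (0.0973), and neither passed with the small RNA covariate (0.0662 and 0.159). RNASEH2C was lost against nonsense siRNA without nonsense siRNA replicate 2 or 3 or any YAP siRNA array (up to 0.139), with arrays centred on their medians (0.0542), with only the 6 arrays compared (0.0566), without the 3 correlated arrays (0.0546) and with the covariate (0.0718), and against untreated cells in 7 of 9 such fits (up to 0.209).

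Nucleotide supply moved in both directions. Of 16 measured genes 3 fell (18.8%) and 2 rose (12.5%) against nonsense siRNA, where 2.61% of all genes fell and 1.92% rose. Of genes above the 50th percentile of mean signal 5.54% fell and 4.14% rose. DCK, deoxycytidine kinase, read 68.7% of the nonsense siRNA level, a fall by 0.54 (adjusted p = 0.00137), and fell by 0.41 against untreated cells (adjusted p = 0.0157). DUT, which removes dUTP, fell by 0.48 (adjusted p = 0.00402) and the nucleotide monophosphate kinase gene CMPK1 fell by 0.39 (adjusted p = 0.0220). DCTPP1, a dCTP pyrophosphatase gene, rose by 0.25 and IMPDH2, of guanine nucleotide synthesis, by 0.19. SAMHD1, which degrades deoxyribonucleotides, rose by 0.40 against untreated cells (adjusted p = 0.000665) and differed by 0.19 from nonsense siRNA (adjusted p = 0.0611). CMPK1 did not pass when nonsense siRNA replicate 1 (adjusted p = 0.126) or 3 (0.110) was left out, nor without YAP siRNA replicate 2 (0.0723) or 3 (0.104). IMPDH2 was lost without any 1 nonsense or YAP siRNA array (up to 0.125), DCTPP1 likewise except for nonsense siRNA replicate 2 (up to 0.119), and DCK against untreated cells without untreated replicate 3 (0.0683) or YAP siRNA replicate 2 (0.0726). DUT and DCK passed against nonsense siRNA in every fit without 1 array (highest adjusted p = 0.0282 and 0.0120). With the small RNA covariate CMPK1 (0.121), DCTPP1 (0.186) and IMPDH2 (0.101) did not pass.

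Regulators of G1/S were read next. Of 19 measured, 3 fell (15.8%) and 0 rose against nonsense siRNA, where 2.61% of all genes fell and 1.92% rose. Of the brighter genes, those above the 50th percentile of mean signal, 5.54% fell and 4.14% rose. SKP2, the F-box protein that targets the CDK inhibitor p27 for destruction, read 9.63, 9.62 and 9.66 after YAP-specific siRNA against 10.23, 10.29 and 10.21 after nonsense siRNA and 10.05, 10.07 and 10.12 in untreated cells, with no overlap. SKP2 fell by 0.61 against nonsense siRNA (adjusted p = 4.11e-06) and by 0.44 against untreated cells (adjusted p = 0.000142). CCND1, cyclin D1, fell by 0.25 (adjusted p = 0.0167) and CDKN2B, the CDK4 and CDK6 inhibitor p15, fell by 0.23 (adjusted p = 0.0235) and also by 0.25 against untreated cells. CDK6 rose by 0.30 against untreated cells (adjusted p = 0.00834). CCNA2, cyclin A2, and CDK2 differed by -0.13 and -0.07 from nonsense siRNA and did not pass. Of 18 E2F and RB family genes 4 fell against nonsense siRNA (22.2%, against 2.61% of all genes and 5.54% of the brighter genes). They were E2F5 by 0.96 (adjusted p = 5.95e-05), TFDP2 by 0.31, E2F7 by 0.24 and LIN9 by 0.23. E2F5 also fell by 0.60 against untreated cells (adjusted p = 0.00401). SKP2, E2F5 and TFDP2 passed against nonsense siRNA in every fit without 1 array (highest adjusted p = 0.0230, for TFDP2). CCND1 was lost without nonsense siRNA replicate 1 (0.0720) or YAP siRNA replicate 1 (0.0979) and after quantile normalization (0.0515), and CDK6 without YAP siRNA replicate 2 (0.0590). CDKN2B was lost against nonsense siRNA without any 1 array of either siRNA (up to 0.0824) and with the small RNA covariate (0.131), and against untreated cells without untreated replicate 1 (0.117) or 2 (0.0834) or YAP siRNA replicate 1 (0.0935) or 2 (0.0916). E2F7 was lost without nonsense siRNA replicate 1 (0.0615) or 3 (0.0765) or YAP siRNA replicate 1 (0.0787) or 2 (0.0681), and LIN9 in 7 of 9 such fits, all but those without nonsense siRNA replicate 2 or YAP siRNA replicate 1 (up to 0.233); LIN9 was also lost after quantile normalization (0.0555) and with the covariate (0.197). E2F1, an activator of replication genes, differed by -0.19 (adjusted p = 0.0986), and RB1 by 0.06 (adjusted p = 0.746).

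Of 16 measured genes of S-phase chromatin and repair 2 fell against nonsense siRNA (12.5%, against 2.61% of all genes). Of genes above the 50th percentile of mean signal 5.54% fell. HAT1, which acetylates new histone H4, fell by 0.43 (adjusted p = 0.00657) and EXO1, a repair exonuclease, fell by 0.26 (adjusted p = 0.00913). Both passed in every fit without 1 array (highest adjusted p = 0.0449 and 0.0492), and neither passed in the fit with the small RNA covariate (0.0517 and 0.0543). Of 24 mitotic genes 1 fell (4.17%, close to the 2.61% of all genes), KIF23, a kinesin of cytokinesis, by 0.23 (adjusted p = 0.0353). That call was lost without untreated replicate 2 (0.0555), nonsense siRNA replicate 1 (0.142) or 3 (0.172) or any YAP siRNA array (up to 0.146), or with the covariate (0.140). The median difference of the list was -0.08, and that of the members -0.07. In nonsense siRNA against untreated cells the medians were 0.12 for further replisome genes, 0.16 for S-phase chromatin and repair and 0.12 for mitosis. Of these lists 1 gene, RNASEH2C, passed, where 0.277% of all genes fell and 0.337% rose.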

How the data were processed

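The authors deposited 1 table of 33297 probe sets on 9 arrays. The log2 signals in it were summarised and put on a common scale before they were deposited by the authors, judging by the near-equal medians of the arrays; log2 is inferred from the range, and the method is not given in the sources used here. No further scaling, filter or pseudocount was applied. Labelled cRNA followed the maker's standard procedure, per the labels. Probe sets with 1 gene in the supplied annotation (19460) gave 18417 genes, each read from its brightest probe set. Using limma 3.58.1 (R 4.3.3), group means were fitted on the whole table (prior degrees of freedom 9.29). Tests were two-sided, with Benjamini-Hochberg adjustment across every gene, and every adjusted p is limma's; intervals cover 95%. When tested on simulated data with independent genes, the fit of YAP siRNA against nonsense siRNA recovered 66.0% of differences of 0.3. Of those of 0.5 the fit recovered 90.0%, and it made 6 false calls in this simulation of 18417 genes. The real arrays had deviations that correlated between groups, and unequal array weights, so these rates may not hold for them. The members and lists (151 of 161 listed genes measured) were chosen with earlier results of these data known. Named were all members, YAP1, RB1, up to 4 passing genes per list and comparison, and some genes whatever their result, 2 of which had no probe set with 1 gene. The alternatives covered scaling, filters, probe set choice, variance model, array weights, a replicate block, a covariate and leaving out arrays. Promoters are RefSeq's (GRCh38.p14). Figures used Python 3.11.15 and matplotlib 3.10.9. The number of arrays limits precision.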

Additional observations from a re-analysis of the deposited data

How the results depend on the processing

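Alternatives left every direction of a called member as it was, and of single-gene results 3260 kept their side of the threshold, 148 lost a call and 64 gained one. These results include every member in every comparison, called or not. Genes that were not called could not lose a call, so the 3260 is no measure of how stable the calls are. Down-weighting discordant arrays gave 10 members lower (6.83% of all genes) and 2 higher (6.22%) against nonsense siRNA, 2 higher after YAP-specific siRNA than in untreated cells (5.52%), 8 higher in nonsense siRNA than untreated cells (8.34%), and 17 by the F-test (23.5%). At an adjusted p under 0.01 there were 3 lower against nonsense siRNA (1.39% of all genes), 1 lower against untreated cells (0.695%) and 2 by the F-test (2.17%). With each array centred on its median 1 was lower against untreated cells (1.15% of all genes). Among genes above the 50th percentile 1 was higher in nonsense siRNA than untreated cells (0.901% of those genes). With only the 6 arrays of a comparison 1 was higher after YAP-specific than after nonsense siRNA (1.63% of all genes). The small RNA covariate gave a median member difference of -0.0314 against nonsense siRNA. Without the 3 correlated arrays there were 10 lower (4.19% of all genes) and 1 higher (2.8%) against nonsense siRNA. In that fit 3 were higher against untreated cells (5.32%) with a median of 0.0508, 9 were higher in nonsense siRNA than untreated cells (8.44%) with a median of 0.10, and 14 passed by the F-test (16.5%). Leaving out 1 array at a time gave 2 to 11 lower and 0 to 1 higher with medians of -0.0790 to -0.0274 against nonsense siRNA, 1 to 3 lower and 0 to 1 higher with medians of -0.01 to 0.03 against untreated cells, 0 to 0 lower and 0 to 8 higher with medians of 0.05 to 0.09 between the controls, and 2 to 13 by the F-test. The cause of these shifts was not tested. In the fits without 1 array 1.47% to 4.43% of all genes were lower and 0.842% to 2.25% higher against nonsense siRNA. Against untreated cells 0.858% to 1.78% were lower and 0.619% to 2.54% higher after YAP-specific siRNA. Between the controls 0.0489% to 2.38% were lower and 0.0109% to 5.6% higher, and the F-test called 2.75% to 11.1%. The labels do not say whether replicate numbers pair the samples. Deviations of same-numbered arrays correlated at -0.34 to 0.34, which cannot decide it. With the replicate number as a block 6 members were lower against nonsense siRNA (2.53% of all genes) and 2 against untreated cells (1.34%). In that fit CDC45 passed against nonsense siRNA (adjusted p = 0.0304) and RRM2 did not against untreated cells (0.0515).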
